A study of Arabidopsis thaliana with 6 samples.

Results

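The iron deficiency regulators described here are 9 basic helix-loop-helix (bHLH) transcription factor genes and BTS, a ubiquitin ligase gene. These 10 genes were taken by their locus identifiers from the 32678 genes listed for each library, and all 10 passed the filter on low values that left 18885 genes for the test. The libraries came from polyadenylated RNA of whole Arabidopsis thaliana seedlings harvested after 5 days under white light. There were 3 libraries of Col-0, the wild-type accession, and 3 of csu6-2, a mutant of COP1 SUPPRESSOR 6, with no other allele or agent named for either genotype. The mutated locus is not given in the labels, so the gene itself was not examined. The labels do not say whether the libraries of a genotype came from separate cultures, so a p-value measures only the spread between these samples. Levels are in RPKM, read counts divided by the length of the gene and by the size of the library.

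Arabidopsis roots short of iron acidify the soil, reduce ferric iron and take up ferrous iron, and a cascade of bHLH factors sets this programme. Factors of subgroup IVc (ILR3, BHLH104 and BHLH115) activate the genes of subgroup Ib (BHLH38, BHLH39, BHLH100 and BHLH101), whose products pair with FIT to switch on the iron transporter gene IRT1 and the ferric reductase gene FRO2. PYE represses genes of iron distribution and storage, and BTS, which binds iron, promotes the breakdown of IVc proteins. Transcripts of the Ib genes, PYE and BTS are known to rise when iron is short.

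Estimated depth was 26100000 to 41700000 reads per library. It was read from the most common low value, after multiplying by exon length, which was taken as 2 reads. That number of reads was assumed, and the depth and the read numbers below depend on it. Markers of both ends of the seedling were present. The summed level of 12 root marker genes was 49.8 to 63.5 RPKM in Col-0 and 52.0 to 73.2 RPKM in csu6-2, and that of 6 green shoot genes was 18650 to 19350 RPKM and 19120 to 21650 RPKM. None of these genes was at 0 in all libraries. Of the 10 root markers tested and the 6 shoot markers, 0 passed the limma test, with 1 of each at an unadjusted p under 0.05. Col-0 replicate 3 and csu6-2 replicate 1 were the extreme libraries for most regulators, by a narrow margin in some. FIT, for example, was at 6.39 RPKM in Col-0 replicate 3 and 6.43 RPKM in replicate 1. Of all tested genes, 46.3% had their lowest wild-type level in Col-0 replicate 3, and 49.5% had their highest mutant level in csu6-2 replicate 1. For 9 of the 10 genes, all but BHLH115, Col-0 replicate 3 was the lowest wild-type library and csu6-2 replicate 1 the highest mutant library, which was so for 26.4% of all tested genes.

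By level, the regulators fell into separate tiers in both genotypes. The IVc genes were the most abundant, with means in Col-0 and csu6-2 of 76.4 and 64.0 RPKM for BHLH115, 49.7 and 47.9 RPKM for ILR3, and 45.9 and 46.8 RPKM for BHLH104. The ranges of ILR3 and BHLH104 overlapped in each genotype, so their order is not settled by these libraries. In Col-0 the middle tier ran from BTS at 12.2 RPKM through PYE at 9.02, FIT at 7.07 and BHLH39 at 5.54 to BHLH38 at 3.14 RPKM. Of these neighbours, only BTS and PYE did not overlap. In csu6-2 the order by mean was BTS at 13.8 RPKM, BHLH39 at 11.0, PYE at 9.67, BHLH38 at 7.64 and FIT at 6.93 RPKM, and each neighbouring pair overlapped. The lowest were BHLH100, at 0.827 and 3.50 RPKM, and BHLH101, at 1.04 and 1.63 RPKM, whose ranges overlapped in both genotypes.

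**Figure D1:**
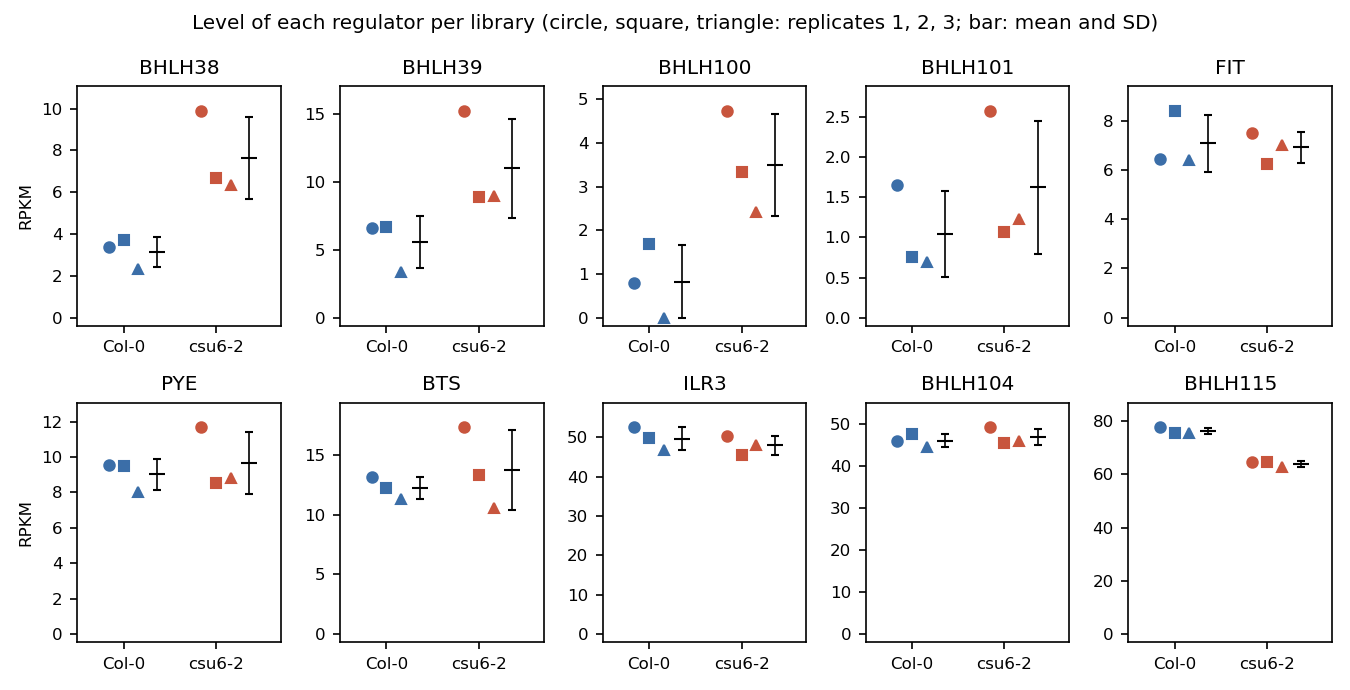
Level in RPKM (vertical axis, 0 included) of each of the 10 regulators in the 3 Col-0 and 3 csu6-2 libraries; circles, squares and triangles are replicates 1, 2 and 3, and the bar is the mean and SD. BHLH38, BHLH39 and BHLH100 lie higher in all mutant libraries, BHLH115 lies lower, and the other 6 overlap.

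Between the genotypes, 1 of the 10 regulators rose and 1 fell at an adjusted p under 0.05, against 3.55% higher and 9.38% lower of all tested genes. BHLH38 rose and BHLH115 fell. The other 8 did not pass. The groups did not overlap for 3 genes that were higher (9.04% of all tested genes) and 1 that was lower (23.0%). Without Col-0 replicate 3 and csu6-2 replicate 1 together, 2 rose (BHLH38 and BHLH100) and 0 fell, against 2.31% higher and 8.36% lower of the genes tested in that fit. The median log2 change of the 10 was 0.11, beside -0.07 over all tested genes. Of all tested genes, 99.7, 99.5, 99.9 and 96.1% had a log2 change no higher than that of BHLH38, BHLH39, BHLH100 and BHLH101, whereas the share was 17.1% for BHLH115 and 53.9 to 85.9% for the remaining 5. BHLH100 and BHLH101 each reached 1 RPKM in 1 wild-type and 3 mutant libraries. Both passed the filter mainly through the mutant, which favours a high place, so their shares and the BHLH100 call are no independent support.

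The 4 subgroup Ib genes, the transcription factors that pair with FIT, all had higher mean levels in the mutant. BHLH38 (AT3G56970) was at 3.39, 3.70 and 2.34 RPKM in Col-0 replicates 1, 2 and 3 and at 9.89, 6.70 and 6.34 RPKM in csu6-2. Every mutant library was above every wild-type library. The mean rose from 3.14 ± 0.713 to 7.64 ± 1.95 RPKM (SD, n = 3 each), a change of 1.05 in log2(RPKM + 1) from Col-0 to csu6-2 (SE 0.17, limma adjusted p = 0.00322). The call was kept in each of the 6 fits that left out a library (adjusted p up to 0.0134). In bulk seedlings, a difference in the number of cells that express a gene and one in RNA per cell cannot be told apart.

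BHLH39 (AT3G56980), the most abundant of the 4, was at 6.61, 6.68 and 3.34 RPKM in Col-0 and 15.23, 8.85 and 8.93 RPKM in csu6-2. The groups did not overlap, but the spread was wide in both. The means were 5.54 ± 1.91 and 11.0 ± 3.66 RPKM (SD, n = 3 each), and the log2 change of 0.88 (SE 0.32) did not pass (limma adjusted p = 0.151). Without Col-0 replicate 3 it was 0.61 and without csu6-2 replicate 1 it was 0.64. Without both it was 0.37 (adjusted p = 0.0513), so the size of the difference depended on these libraries. They were its lowest wild-type and highest mutant libraries, so leaving them out can only lower the change. With replicate number as a block in the fit, BHLH39 passed (limma adjusted p = 0.00767).

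BHLH100 (AT2G41240) was listed at 0.80, 1.68 and 0 RPKM in Col-0 and at 4.74, 3.34 and 2.41 RPKM in csu6-2. All mutant libraries were above all wild-type libraries. Its log2 change, 1.38 (SE 0.40), was the largest of the 10 regulators but did not pass (limma adjusted p = 0.0842). It passed when Col-0 replicate 3, the library listed at 0, was left out (log2 change 1.00, adjusted p = 0.0346), and when Col-0 replicate 2 was left out (1.71, adjusted p = 0.0183). Col-0 replicate 2 was its highest wild-type library, so leaving that library out can only raise the change. With replicate number as a block in the fit BHLH100 passed too (limma adjusted p = 0.0024).

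BHLH101 (AT5G04150), the least abundant, was at 1.66, 0.76 and 0.70 RPKM in Col-0 and 2.58, 1.07 and 1.23 RPKM in csu6-2. Here the groups overlapped, since Col-0 replicate 1 was above 2 mutant libraries. The log2 change of 0.35 (SE 0.24) did not pass (limma adjusted p = 0.376), and it was -0.01 without Col-0 replicate 3 and csu6-2 replicate 1. Those were its lowest wild-type and highest mutant libraries, so leaving them out lowers the change by construction. BHLH101 reached 1 RPKM in 1 wild-type and 3 mutant libraries, and BHLH100 likewise, so both entered the test mainly through the mutant.

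Summed over the 4 genes, the Ib level was 12.5, 12.8 and 6.38 RPKM in Col-0 and 32.4, 20.0 and 18.9 RPKM in csu6-2. The groups did not overlap, and the geometric mean was 2.29 times that of Col-0 (two-sided exact permutation p = 0.1, the smallest that 3 against 3 libraries allow, and 0.15 adjusted over 6 such results). BHLH39 made up the largest part of this sum in each of the 6 libraries. BHLH39 gave 52.1 to 53.0% of it in Col-0 and 44.3 to 47.2% in csu6-2, and BHLH38 gave 27.2 to 36.7% and 30.5 to 33.6%. The share of BHLH100 was 0 to 13.1% in Col-0 and 12.7 to 16.7% in csu6-2. BHLH39 stood to BHLH38 as 1.95, 1.81 and 1.43 in the wild type and 1.54, 1.32 and 1.41 in the mutant, ratios that overlapped (exact permutation p = 0.2, adjusted p = 0.24).

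BHLH38 and BHLH39 are neighbours on chromosome 3, both on the minus strand, with 1144 bases and 0 annotated genes between them in the RefSeq annotation of TAIR10.1. BHLH38 spans 21084035 to 21085245 and BHLH39 spans 21086390 to 21087710. Their coding sequences were identical at 84.8% of aligned bases, with a longest identical run of 34 bases. BHLH100 (chromosome 2, 17198037 to 17199454) was identical to BHLH39 at 76.3% and to BHLH38 at 75.3%, and BHLH101 (chromosome 5, 1138410 to 1139633) to the other 3 at 61.1 to 64.3%. How the counting treated reads that match several copies is not stated in the labels. BHLH38 overlaps PIP5K4 on the other strand by 386 bases, and PIP5K4 was at 1.33 to 2.04 RPKM with no call (log2 change -0.25, limma adjusted p = 0.214). BHLH101 overlaps GLU1, a glutamate synthase gene at 239.12 to 339.1 RPKM, by 79 bases on the other strand. ILR3 overlaps AT5G08235, which has no listed level, by 630 bases, and AT5G54690 by 51 bases, both on the other strand. BHLH115 overlaps AT1G51080, at 19.35 to 22.99 RPKM, by 19 bases on the other strand. The strand setting of the counting is not given, so reads of overlapping genes in these stretches cannot be told apart.

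The 250 bases before the annotated starts of the Ib genes are shown with those of BTS, because BHLH38 was the regulator that rose, with its 3 Ib relatives beside it, and BTS held the most G-boxes. The sequences are from the RefSeq genome TAIR10.1, and capitals mark the E-box CANNTG, the letters that bHLH factors are known to bind. The form CACGTG is the G-box, and it is counted among the E-boxes too. Both read the same on either strand.
BHLH38, chr3:21085246-21085495, minus strand: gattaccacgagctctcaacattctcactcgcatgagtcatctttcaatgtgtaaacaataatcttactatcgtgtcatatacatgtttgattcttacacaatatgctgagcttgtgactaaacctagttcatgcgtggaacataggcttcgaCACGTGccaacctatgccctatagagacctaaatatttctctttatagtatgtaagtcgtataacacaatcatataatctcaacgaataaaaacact
BHLH39, chr3:21087711-21087960, minus strand: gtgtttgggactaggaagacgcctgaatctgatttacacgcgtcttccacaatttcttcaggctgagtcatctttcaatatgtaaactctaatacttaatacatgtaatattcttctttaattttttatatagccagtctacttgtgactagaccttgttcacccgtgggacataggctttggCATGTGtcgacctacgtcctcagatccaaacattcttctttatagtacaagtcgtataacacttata
BHLH100, chr2:17199455-17199704, minus strand: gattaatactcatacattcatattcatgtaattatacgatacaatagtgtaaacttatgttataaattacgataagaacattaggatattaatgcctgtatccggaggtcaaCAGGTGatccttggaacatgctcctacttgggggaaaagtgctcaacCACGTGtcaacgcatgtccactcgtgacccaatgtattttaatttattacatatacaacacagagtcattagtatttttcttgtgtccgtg
BHLH101, chr5:1139634-1139883, minus strand: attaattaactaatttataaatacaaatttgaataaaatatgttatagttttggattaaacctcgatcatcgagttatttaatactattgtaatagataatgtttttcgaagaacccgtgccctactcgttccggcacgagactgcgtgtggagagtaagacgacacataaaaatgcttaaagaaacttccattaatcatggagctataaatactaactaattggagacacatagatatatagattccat
BTS, chr3:6273716-6273965, plus strand: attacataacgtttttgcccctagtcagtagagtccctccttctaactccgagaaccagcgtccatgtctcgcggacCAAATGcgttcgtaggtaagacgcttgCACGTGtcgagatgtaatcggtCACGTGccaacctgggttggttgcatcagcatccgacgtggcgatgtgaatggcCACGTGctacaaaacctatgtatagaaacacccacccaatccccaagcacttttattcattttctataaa

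BHLH38 held 1 G-box, which began 97 bases before the start, and BHLH100 held 1 at 91 bases and another E-box at 138 bases. BHLH39 held an E-box of another form at 67 bases, and BHLH101 held none. BTS held 3 G-boxes, at 146, 124 and 70 bases, and 1 more E-box. Of 27443 nuclear protein-coding genes, 6.49% held a G-box in the same window and 55.3% an E-box. FIT, ILR3 and BHLH115 each held 1 E-box that was no G-box, and PYE and BHLH104 held none. A match of letters is a description and not a bound site.

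**Figure D2:**
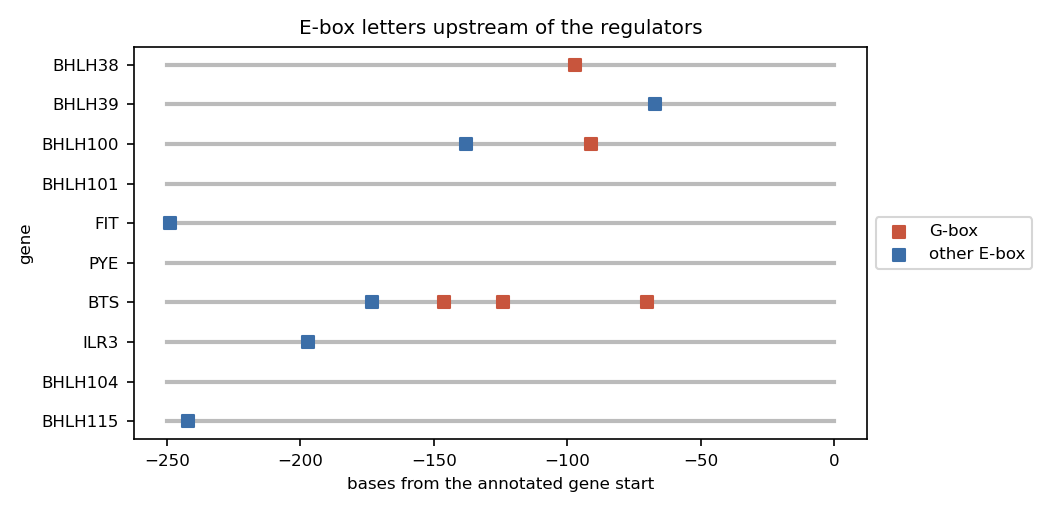
Places of the E-box letters (squares; red, G-box; blue, other E-boxes) in the 250 bases before the annotated start of each regulator, with distance from the start in bases on the horizontal axis. BTS holds 3 G-boxes, BHLH38 and BHLH100 hold 1 each, and the other 7 genes hold none.

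FIT (AT2G28160), the partner of the Ib factors, overlapped between genotypes. It was at 6.43, 8.40 and 6.39 RPKM in Col-0 and 7.51, 6.26 and 7.01 RPKM in csu6-2. The means were 7.07 ± 1.15 and 6.93 ± 0.629 RPKM (SD, n = 3 each), with a log2 change of -0.02 (SE 0.11, limma adjusted p = 0.931). This sign turned with median-of-ratios scaling (0.05). The ratio of the Ib sum to FIT within each library, which no scaling of a library can move, was 1.94, 1.53 and 0.998 in Col-0 and 4.32, 3.19 and 2.7 in csu6-2. These did not overlap, with a geometric mean 2.33 times that of Col-0 (exact permutation p = 0.1, adjusted p = 0.15).

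**Figure D3:**
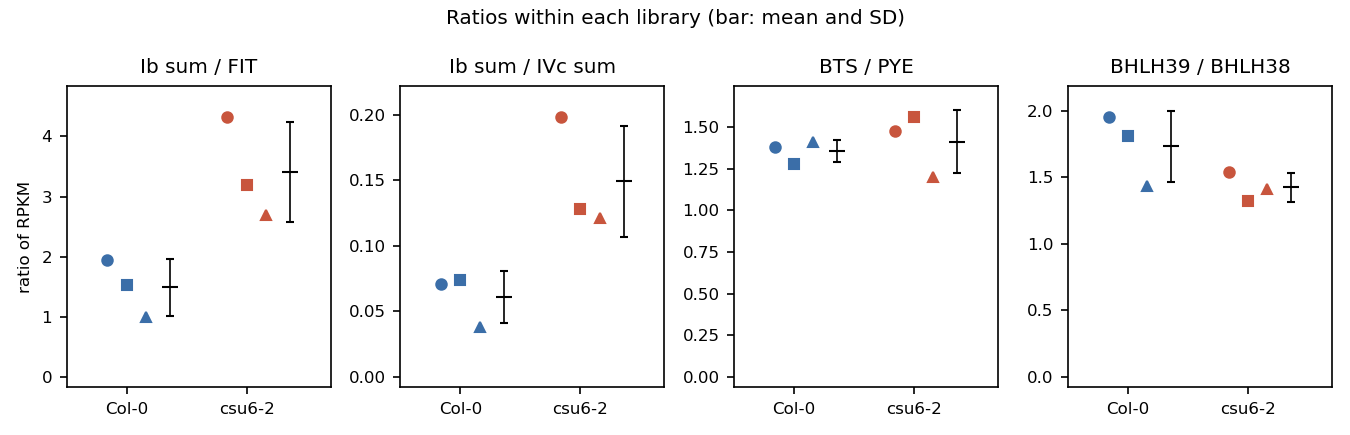
Ratios of RPKM within each library (vertical axes, 0 included) by genotype, with replicates 1, 2 and 3 as circles, squares and triangles and a bar for the mean and SD. The Ib sum over FIT and over the IVc sum is higher in all csu6-2 libraries, whereas BTS over PYE and BHLH39 over BHLH38 overlap.

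PYE (AT3G47640), the repressor, was at 9.54, 9.50 and 8.03 RPKM in Col-0 and 11.68, 8.55 and 8.79 RPKM in csu6-2. Only csu6-2 replicate 1 was above the wild-type range. The log2 change was 0.08 (SE 0.12, limma adjusted p = 0.697), and -0.05 without that library. BTS (AT3G18290), the ligase, was at 13.13, 12.20 and 11.34 RPKM in Col-0 and at 17.32, 13.34 and 10.59 RPKM in csu6-2, so its mutant libraries lay on both sides of the wild type. Its log2 change of 0.13 (SE 0.15) did not pass (limma adjusted p = 0.603) and was -0.03 without csu6-2 replicate 1. BTS stood to PYE as 1.38, 1.28 and 1.41 in the wild type and 1.48, 1.56 and 1.2 in the mutant, which overlapped (exact permutation p = 0.7, adjusted p = 0.7).

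The subgroup IVc genes, which encode the activators upstream, had small differences between genotypes and close replicates. BHLH115 (AT1G51070) was at 77.72, 75.66 and 75.74 RPKM in Col-0 and 64.54, 64.60 and 62.84 RPKM in csu6-2. All mutant libraries were below all wild-type libraries. The mean fell from 76.4 ± 1.17 to 64.0 ± 0.999 RPKM (SD, n = 3 each). The log2 change was -0.25 (SE 0.07, limma adjusted p = 0.0239). The call depended on the scaling, the variance model and the libraries. With median-of-ratios scaling BHLH115 missed the threshold (log2 change -0.18, adjusted p = 0.111), as it did without trend or robust variance (adjusted p = 0.0592). Of the fits without 1 library only that without csu6-2 replicate 1 called it (adjusted p = 0.0411). Without Col-0 replicates 1, 2 and 3 the adjusted p was 0.0678, 0.0659 and 0.0545, and without csu6-2 replicates 2 and 3 it was 0.0635 and 0.0821. The log2 change was -0.26 to -0.24 in all of these fits, and -0.26 without Col-0 replicate 3 and csu6-2 replicate 1 together (adjusted p = 0.0694).

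ILR3 (AT5G54680) was at 52.52, 49.75 and 46.75 RPKM in Col-0 and 50.26, 45.39 and 48.12 RPKM in csu6-2, and BHLH104 (AT4G14410) was at 45.85, 47.46 and 44.52 RPKM and 49.10, 45.43 and 45.93 RPKM. Both overlapped. Their log2 changes were -0.05 (SE 0.07, limma adjusted p = 0.71; 0.02 with median-of-ratios scaling) and 0.03 (SE 0.07, adjusted p = 0.849). The summed level of these 3 IVc genes was 176.0, 173.0 and 167.0 RPKM in the wild type and 164.0, 155.0 and 157.0 RPKM in the mutant, without overlap (exact permutation p = 0.1, adjusted p = 0.15; a log2 difference of -0.12). With median-of-ratios scaling the difference was -0.04 and the groups overlapped (exact permutation p = 0.2). With BHLH34, the remaining IVc gene, added after the values were seen, the sums overlapped too, at 187.0, 185.6 and 177.7 RPKM in Col-0 and 179.9, 170.2 and 172.3 RPKM in csu6-2 (exact permutation p = 0.2). The ratio of the Ib sum to the sum of the 3 IVc genes was 0.0708, 0.0742 and 0.0382 in Col-0 and 0.198, 0.128 and 0.121 in csu6-2, a geometric mean 2.48 times that of Col-0 (exact permutation p = 0.1, adjusted p = 0.15). These groups did not overlap, with or without BHLH34 in the sum.

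Other regulators of the same pathway gave 2 rises and 0 falls among 10 tested of 14 listed, the other 4 being too low for the test, with a median log2 change of 0.16, against 3.55% higher, 9.38% lower and a median of -0.07 over all tested genes. This list and those of uptake and of distribution and storage were chosen with earlier results of these data known. Their counts beside the shares over all genes are a description and no independent support. BHLH34 was at 10.92, 12.77 and 10.72 RPKM in Col-0 and 16.03, 14.76 and 15.46 RPKM in csu6-2, all higher (log2 change 0.40, SE 0.09, limma adjusted p = 0.0111). It thus went the other way from BHLH115. The ratio of BHLH34 to BHLH115, computed after these values were seen and without a test, was 0.141 to 0.169 in the wild type and 0.228 to 0.248 in the mutant. BHLH34 passed in each fit without 1 library, but not without Col-0 replicate 3 and csu6-2 replicate 1 together (adjusted p = 0.0752). Those were its lowest wild-type and highest mutant libraries, so leaving them out lowers the change by construction.

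BTSL1, a ligase gene related to BTS and known in roots, was at 3.14, 3.48 and 3.88 RPKM in Col-0 and at 4.94, 4.90 and 4.86 RPKM in csu6-2. It was higher in all mutant libraries (log2 change 0.39, SE 0.11, limma adjusted p = 0.0285), but passed in 1 of 6 fits without a library, that without Col-0 replicate 3 (adjusted p up to 0.0939 in the others), and not without that library and csu6-2 replicate 1 together (adjusted p = 0.0508). Col-0 replicate 3 was the highest wild-type library of BTSL1, so leaving it out raises the change by construction. BTSL2, the partner of BTSL1, had a log2 change of -0.03 (limma adjusted p = 0.91), and 0.03 with median-of-ratios scaling. BHLH121, which acts with the IVc factors, and BHLH11, a repressor, did not pass (log2 changes 0.14 and 0.23, adjusted p = 0.294 and 0.324).

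IMA1, IMA2 and IMA3 encode small peptides that restrain BTS, and their SDs within a genotype were larger than the difference between the genotype means. IMA1 was at 21.15, 19.31 and 9.53 RPKM in Col-0 and 21.41, 15.01 and 7.19 RPKM in csu6-2. IMA2 was at 53.01, 52.21 and 25.63 RPKM and 55.39, 29.43 and 22.46 RPKM, and IMA3 at 11.75, 12.18 and 6.68 RPKM and 19.18, 10.69 and 6.97 RPKM. In both genotypes replicate 3 was the lowest for each peptide gene, and all of them overlapped between genotypes. Their log2 changes were -0.23, -0.31 and 0.18 with SEs of 0.53, 0.49 and 0.44, and 0 of the 3 passed (limma adjusted p = 0.831, 0.748 and 0.84, and unadjusted p = 0.686, 0.561 and 0.7). The sign of IMA3 turned without Col-0 replicate 3 (-0.07). Leaving out 1 library moved the log2 change of IMA2 between -0.67 and -0.04, with no call. Without Col-0 replicate 3 and csu6-2 replicate 1 together, IMA2 was called lower (log2 change -1.005, limma adjusted p = 0.00285), while IMA1 and IMA3 were not (-0.89 and -0.43, adjusted p = 0.2 and 0.157). Those were the lowest wild-type and highest mutant libraries for each IMA gene, so leaving them out lowers every change by construction. That fit also keeps replicate 3, the lowest in both genotypes, for csu6-2 only. The IMA2 call therefore cannot show a fall.

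The Ib and IMA genes shared their lowest Col-0 library and their highest csu6-2 library. In Col-0 replicate 3 the Ib sum was 6.38 RPKM and the IMA sum 41.84 RPKM, both the lowest of the wild type, while the 4 ferritin genes, which encode iron storage proteins, summed to 340.1 RPKM, the highest of all 6 libraries. In Col-0 replicates 1 and 2 the IMA sums were 85.91 and 83.7 RPKM and the ferritin sums 215.4 and 268.0 RPKM. In csu6-2 replicate 1 the Ib sum of 32.4 RPKM and the IMA sum of 95.98 RPKM were the highest of all libraries, beside a ferritin sum of 238.9 RPKM. In csu6-2 replicates 2 and 3 the Ib sums stayed above every wild-type library, at 20.0 and 18.9 RPKM, with IMA sums of 55.13 and 36.62 RPKM. Their ferritin sums of 306.4 and 292.7 RPKM were above those of Col-0 replicates 1 and 2, so the libraries with more Ib transcript were not always those with less ferritin transcript.

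**Figure D4:**
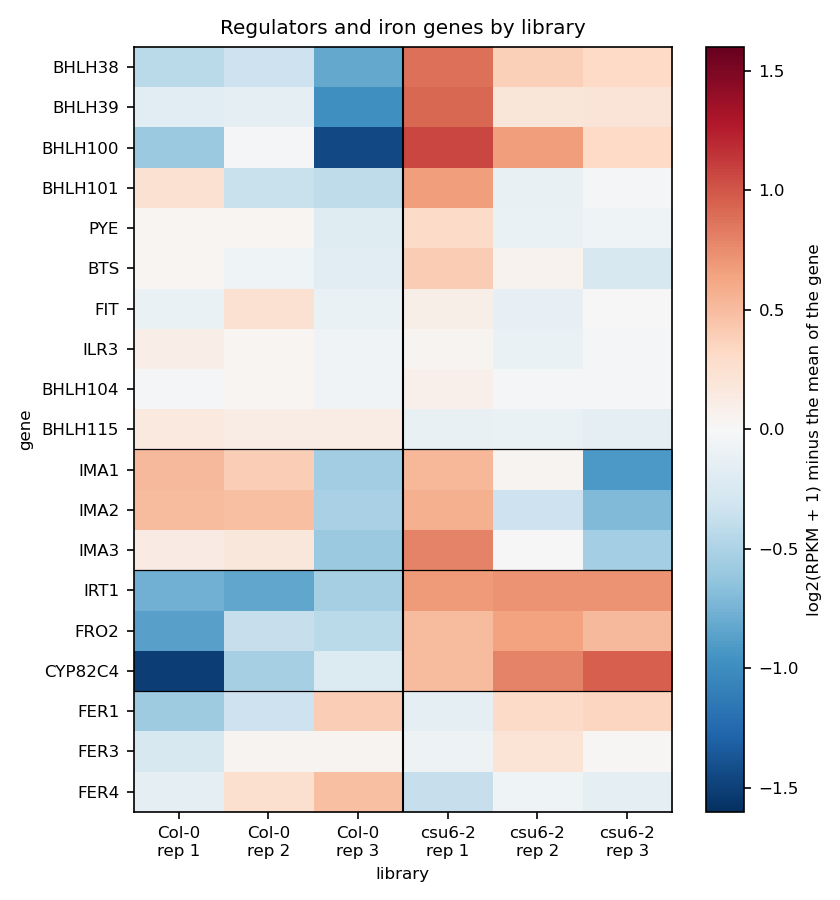
Colour gives log2(RPKM + 1) minus the mean of the gene over the 6 libraries (columns) for the 10 regulators, 3 IMA peptide genes, 3 uptake genes and 3 ferritin genes (rows). The Ib genes are lowest in Col-0 replicate 3 and highest in csu6-2 replicate 1, and the IMA genes are low in replicate 3 of both genotypes. The 3 uptake genes shown, IRT1, FRO2 and CYP82C4, are higher in every csu6-2 library, which does not hold for all 12 listed.

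Among 10 tested of 12 listed uptake genes, again a list chosen with earlier results known, 4 rose and 0 fell. The median log2 change was 0.35, against 3.55% higher and 9.38% lower of all tested genes. Of the 12, 8 did not overlap and were higher (9.04% of all tested genes). Of the 10 tested, 9 had a log2 change above 0, and COPT2 had one below (-0.21, limma adjusted p = 0.145). IRT1, the target of FIT with Ib partners, was at 7.36, 7.01 and 8.85 RPKM in Col-0 and 21.83, 22.32 and 22.48 RPKM in csu6-2 (limma adjusted p = 2.44e-06). FRO2 was at 1.13, 2.02 and 1.89 RPKM and 4.54, 5.11 and 4.57 RPKM (adjusted p = 0.000328). Unlike the Ib genes, IRT1 was not lowest in Col-0 replicate 3 and not highest in csu6-2 replicate 1. F6'H1, for coumarin synthesis, and MTP3, for zinc transport into the vacuole, had log2 changes of 0.37 and 0.38 (adjusted p = 0.0421 and 0.0345). Of the 6 fits without a library, F6'H1 passed in that without csu6-2 replicate 1 alone (adjusted p up to 0.18 in the others), and MTP3 in that without Col-0 replicate 2 alone (up to 0.0975). Those were the lowest mutant library of F6'H1 and the highest wild-type library of MTP3, so leaving them out raises the change by construction. CYP82C4, which makes an iron-mobilising coumarin, was at 2.44, 5.75 and 7.36 RPKM and 12.84, 15.98 and 17.96 RPKM, but did not pass (log2 change 1.51, adjusted p = 0.0686). With the lowest of these libraries, Col-0 replicate 1, left out it passed, at a smaller change (1.13 on the log2 scale, adjusted p = 0.000297). The summed level of the 12 root markers, 49.8 to 63.5 RPKM in Col-0 and 52.0 to 73.2 RPKM in csu6-2, overlapped between genotypes. The 10 root markers tested had a median log2 change of 0.19, with 7 of 10 above 0, beside -0.07 over all tested genes, and their part in these results was not tested.

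Among 15 genes of iron distribution and storage, 2 rose and 0 fell, with a median log2 change of 0.10, against 3.55% higher, 9.38% lower and a median of -0.07 over all tested genes. The other 13 did not pass. This list pools genes of distribution, such as FRO3, with genes of storage, such as VTL1, so the median describes neither kind alone. FRO3, a ferric reductase gene that PYE represses, was at 7.47, 8.28 and 5.52 RPKM in Col-0 and 10.34, 9.62 and 10.71 RPKM in csu6-2 (log2 change 0.49, limma adjusted p = 0.0203). PYE itself did not pass, and its part in the level of FRO3 was not tested. VTL1, a vacuolar iron transporter-like gene, was at 3.06, 3.02 and 4.66 RPKM and 5.11, 5.93 and 5.98 RPKM (log2 change 0.56, adjusted p = 0.0181). Of the 6 fits without a library, FRO3 passed in those without Col-0 replicates 1 and 2 (adjusted p up to 0.0644 in the others), and VTL1 in those without Col-0 replicate 3 and csu6-2 replicate 1 (up to 0.0804). The fits that called FRO3 left out its higher wild-type libraries. Without Col-0 replicate 3 and csu6-2 replicate 1 together, VTL1 passed (adjusted p = 0.0059), and FRO3 and the uptake gene MTP3 did not (adjusted p = 0.0856 and 0.162). For VTL1 these were the highest wild-type and lowest mutant libraries, so leaving out either or both raises its change by construction. For MTP3 they were the lowest and highest, and for FRO3 Col-0 replicate 3 was the lowest. Leaving them out thus lowers the changes of MTP3 and FRO3 (to 0.30 and 0.33).

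**Figure D5:**
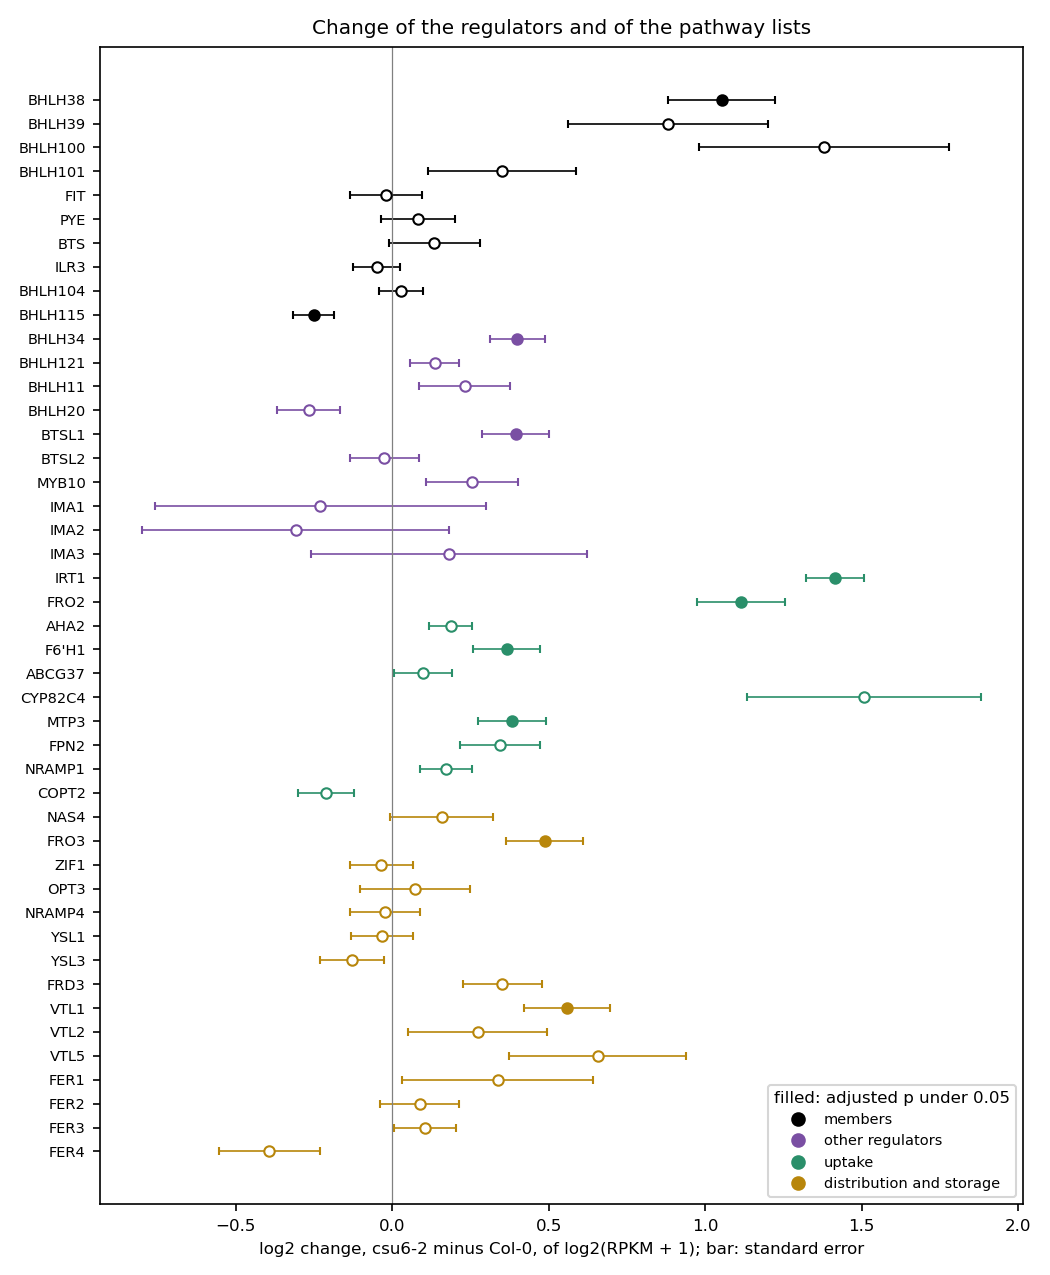
Change in log2(RPKM + 1), csu6-2 minus Col-0 (horizontal axis, with SE as the bar), of each tested gene of the 10 regulators (black) and 3 pathway lists (colours); filled points passed at an adjusted p under 0.05. BHLH38 lies at 1.05 and BHLH115 at -0.25, while FIT, PYE, BTS, ILR3 and BHLH104 lie between -0.05 and 0.13.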

How the data were processed

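Polyadenylated RNA from whole seedlings was sequenced in 3 libraries of each of 2 genotypes. For each library the authors deposited gene identifiers with RPKM values rounded to 2 decimals; the unit was read from the values. The submitters' processing notes name HISAT2, edgeR 3.0.8 and TAIR10 without a role, and the labels name no counter, annotation or strand setting. Since RPKM is relative to the library total, abundant transcripts that rise lower all others.

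Genes with at least 1 RPKM in 3 or more libraries were tested on log2(RPKM + 1) with limma 3.58.1 in R 4.3.3 (eBayes with trend and robust, statmod 1.5.0), two-sided, with Benjamini-Hochberg adjustment over all tested genes and a threshold of 0.05. A pseudocount of 1 understates changes of low genes. Sums and ratios were compared by exact permutation of log2 values with scipy 1.17.1. The script was tested on simulated data. The members and lists were chosen with earlier results of these data known. Pathway genes are named if called (up to 6 per list), with fixed regulators, IRT1 and FRO2; CYP82C4 was added after its values were seen. Replicate numbers were not taken as pairs, since the labels do not say that a number marks a shared batch. Same-numbered libraries had correlations of deviations of 0.204, 0.051 and 0.221, all above 0, which does not exclude a shared effect. A block on replicate number was therefore kept as an alternative. Alternatives changed the pseudocount, filter, scaling, variance model, block and libraries. Without counts, no interval for counting error is given.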

Additional observations from a re-analysis of the deposited data

How the results depend on the processing

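BHLH38 kept its rise under every alternative (log2 change 0.73 to 1.25, adjusted p up to 0.0137), as did IRT1 and FRO2. Leaving out 1 library gave 1 to 2 regulators higher and 0 to 1 lower, 389 to 674 genes higher and 859 to 1790 lower in all, 1 to 2 other regulators, 2 to 3 uptake genes and 0 to 3 distribution and storage genes higher, and 0 to 1 of the last lower. With median-of-ratios scaling 1066 genes were higher and 1110 lower, and 0 regulators were lower. Without trend or robust variance, 2 regulators were higher (BHLH38 and BHLH100, the latter at limma adjusted p = 0.0316) and 0 lower. With no filter, 0 distribution and storage genes were higher. The replicate block, on numbers that share no stated source, gave 813 genes higher and 2156 lower in all, and 4 distribution and storage genes higher and 1 lower. It gave 3 regulators higher (BHLH38, BHLH39 and BHLH100). The missing call of BHLH39 in the main fit thus depended on leaving out this block. That of BHLH100 depended on the block, the variance model and the libraries used. Without Col-0 replicate 3 and csu6-2 replicate 1 together, an alternative chosen after seeing the data, 428 genes, 2 regulators and 0 other regulators were higher, and 0 regulators and 2 other regulators (IMA2 and BHLH20, the latter named after its values were seen) lower. This pair held the lowest wild-type and highest mutant level for 9 of the 10 regulators, BHLH34, IMA2 and BHLH20. Leaving it out thus lowers their changes by construction.

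Signs turned for genes that did not pass. Over the fits without 1 library or without that pair, log2 changes ran from -0.0102 to 0.558 for BHLH101, -0.132 to 0.0942 for FIT, -0.122 to 0.156 for PYE, -0.0832 to 0.296 for BTS, -0.0296 to 0.0495 for BHLH104, -0.0623 to 0.0009 for BTSL2, -0.889 to 0.174 for IMA1, -0.426 to 0.496 for IMA3 and -0.0213 to 0.165 for BTS against PYE. With median-of-ratios scaling they were 0.0468 for FIT, 0.0247 for ILR3 and 0.0298 for BTSL2. The causes were not tested. Depth was only estimated, so no counting error is given for BHLH100 and BHLH101, the lowest of the regulators.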

Other observations

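BHLH100 was listed at 0 in Col-0 replicate 3, where 1 read would have been listed as about 0.033 RPKM if the estimated depth holds. With the estimated depth, its values correspond to about 26 and 81 reads in Col-0 replicates 1 and 2 and to 201, 110 and 87 reads in csu6-2. It was 1 of 3 genes in the whole table listed at 0 in exactly 1 library and at 0.7 RPKM or more in the other 5.

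The genes whose pattern over the 6 libraries was nearest to the mean of the Ib genes were sought among 14144 genes whose mean reached 5 RPKM in either genotype. Likeness was the root mean square difference of log2(RPKM + 1), each gene centred on its own mean, with a median of 0.578 over these genes. The nearest was BGAL4, a beta-galactosidase gene, at 0.225, with 15.12, 11.85 and 10.98 RPKM in Col-0 and 26.18, 18.66 and 21.55 RPKM in csu6-2. AT2G32320 followed at 0.235, the defensin gene PDF2.5 at 0.244, the cell wall gene XTH12 at 0.249 and the ferric reductase gene FRO6 at 0.25. XTH12 was at 3.5, 2.27 and 2.01 RPKM in Col-0 and 7.16, 4.64 and 6.43 RPKM in csu6-2. It entered only through its mutant mean, which favours a pattern high in the mutant, so its place is no independent support. FRO6 was at 22.84, 21.49 and 17.49 RPKM in Col-0 and 37.28, 36.15 and 37.64 RPKM in csu6-2. Among the Ib genes themselves the difference from their mean was 0.0586 for BHLH39, 0.114 for BHLH38, 0.329 for BHLH100 and 0.358 for BHLH101, so these 5 genes lay nearer to the mean than BHLH100 and BHLH101 did. Each Ib gene is part of that mean, which draws the mean towards it. BHLH100 and BHLH101 also had means below the 5 RPKM asked of the other genes, so this comparison is between unlike levels. IRT1 was at 0.464 and FIT at 0.535.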
